A study of Mus musculus with 32 samples.

Results

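The G protein-coupled receptors for serotonin, acetylcholine and endocannabinoids were followed in mouse striatum across 2 genotypes and 2 treatments. The set was given as 9 named genes: the serotonin receptors Htr1b, Htr1d, Htr2a, Htr2c, Htr4 and Htr6, the muscarinic acetylcholine receptors Chrm1 and Chrm4, and the cannabinoid receptor Cnr1. Every probe set that the platform table assigns to one of these symbols alone was taken, which gave 15 probe sets for 8 genes, out of 45037 probe sets and 18193 genes. Htr2a was not analysed here. The arrays came from striatum of male mice of 12 weeks on a CBA X C57Bl/6 background. There were 8 arrays from R6/2 mice given HSP990 and 7 from R6/2 mice given vehicle. A further 10 were from wild-type (WT) mice given HSP990 and 7 from WT mice given vehicle. R6/2 mice carry the first exon of the human huntingtin gene with an expanded CAG repeat, driven by the human huntingtin promoter, and are a model of Huntington's disease. HSP990 (NVP-HSP990) inhibits the chaperone HSP90. It was given by oral gavage at 12 mg/kg, and tissue was taken after 4 h; vehicle was the same suspension fluid without the compound. The labels identify no animals, so p-values measure the spread between these arrays.

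Spiny projection neurons make up most of the striatum, and these receptors set how they answer serotonin, acetylcholine and endocannabinoids. Htr1b, Htr1d, Chrm4 and Cnr1 couple to Gi and Go proteins, which lower cyclic AMP. Htr4 and Htr6 couple to Gs and raise it. Htr2c and Chrm1 couple to Gq, which activates phospholipase C. The Htr1b and Cnr1 proteins are carried to axon terminals, where they limit transmitter release, and Chrm4 is known for its place on spiny neurons of the direct pathway. Htr2c is also a hallmark transcript of the choroid plexus, a tissue within the ventricles next to the striatum.

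Values are the authors' log2 values, and an increase of 1 is a doubling. The inducible chaperone gene Hspa1a, which HSP90 inhibitors raise, followed the treatment labels: it ranged from 9.81 to 10.6 in R6/2 HSP990 arrays and from 6.01 to 7.82 in R6/2 vehicle arrays. It ranged from 10.8 to 11.6 in WT HSP990 arrays and from 5.27 to 6.71 in WT vehicle arrays. The spiny neuron gene Ppp1r1b, a defining marker of striatum, was at 8.76 or more on every array. A measure of RNA breakdown is the difference between the 3' and 5' Gapdh control probe sets. It exceeded 2 on 2 arrays, R6/2 HSP990 replicate 5 (5.01) and WT vehicle replicate 5 (2.23). The same difference for actin ran from 1.48 to 4.10 in R6/2 HSP990 and from 1.37 to 2.76 in R6/2 vehicle arrays. In WT it ran from 1.13 to 2.20 on HSP990 and from 1.37 to 2.66 on vehicle. The mean of both differences, the 3' bias used below, was uneven between groups. Its median was 1.46 in R6/2 HSP990, 1.07 in R6/2 vehicle, 1.04 in WT HSP990 and 1.43 in WT vehicle arrays. Markers of tissue next to the striatum varied widely within every group. The choroid plexus gene Ttr ranged from 11.6 to 14.7 in R6/2 HSP990 arrays, from 11.0 to 14.2 in R6/2 vehicle arrays, from 11.6 to 14.6 in WT HSP990 arrays and from 11.0 to 14.6 in WT vehicle arrays. By limma, 0 of 7 measured cortex markers and 0 of 7 measured choroid plexus markers passed in any comparison. At an unadjusted p under 0.05 there were 0 cortex markers, and at most 2 choroid plexus markers, those 2 on vehicle between genotypes. The choroid plexus median difference between genotypes was -0.95 on vehicle and 0.12 on HSP990. For HSP990 against vehicle it was 0.41 in R6/2 and -0.66 in WT. The cortex medians were 0.18, 0.055, -0.54 and -0.35 in the same order. With so wide a spread, 0 calls do not show equal tissue content. Of 6 markers of neighbouring subcortical regions, Trh was lower in R6/2 on both treatments (-0.29 ± 0.09 on HSP990, -0.54 ± 0.10 on vehicle) and Shox2 was higher on HSP990 (1.40 ± 0.21). For HSP990 in R6/2, 0 of these 6 passed by limma, with 3 at an unadjusted p under 0.05.

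The proximal promoters of 4 of the receptor genes are shown because these genes span the responses described below: Cnr1, Htr1b and Htr1d, which were lower in R6/2 striatum, and Htr2c, which was higher there on HSP990. Each line gives the 250 bases before an annotated transcript start, 5′ to 3′ on the gene's strand, from RefSeq on GRCm38.p6, and capitals mark matches to the GC box GGGCGG on either strand.
Cnr1: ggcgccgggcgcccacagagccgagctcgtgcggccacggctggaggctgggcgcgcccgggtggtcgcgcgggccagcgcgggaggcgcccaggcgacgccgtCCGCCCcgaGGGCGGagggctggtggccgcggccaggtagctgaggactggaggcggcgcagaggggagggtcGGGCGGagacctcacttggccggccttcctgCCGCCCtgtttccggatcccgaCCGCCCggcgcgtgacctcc
Htr1b: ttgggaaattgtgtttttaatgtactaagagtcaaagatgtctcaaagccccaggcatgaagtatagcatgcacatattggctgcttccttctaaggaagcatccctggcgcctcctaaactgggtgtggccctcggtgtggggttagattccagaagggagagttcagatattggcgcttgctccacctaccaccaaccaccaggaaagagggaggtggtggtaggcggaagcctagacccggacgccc
Htr1d: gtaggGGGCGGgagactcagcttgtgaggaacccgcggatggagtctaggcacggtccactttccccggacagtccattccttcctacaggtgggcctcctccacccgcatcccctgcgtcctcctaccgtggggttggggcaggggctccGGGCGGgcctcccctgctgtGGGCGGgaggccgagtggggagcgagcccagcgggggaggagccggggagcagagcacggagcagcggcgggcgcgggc
Htr2c: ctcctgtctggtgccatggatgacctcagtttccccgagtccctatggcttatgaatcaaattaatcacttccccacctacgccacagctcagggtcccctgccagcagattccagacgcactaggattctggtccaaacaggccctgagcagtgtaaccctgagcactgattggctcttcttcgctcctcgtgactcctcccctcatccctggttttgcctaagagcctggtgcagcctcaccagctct
The Cnr1 window is chr4:33924014-33924263 on the plus strand and holds 5 GC boxes, with a GC content of 79.2%. The Htr1b window, chr9:81633833-81634082 on the minus strand, has 52.4% GC and no GC box. For Htr1d the window is chr4:136424362-136424611 on the plus strand, with 3 GC boxes and 72.4% GC. For Htr2c it is chrX:146962263-146962512 on the plus strand, with no GC box and 55.6% GC. Promoter windows were at hand for 6 of the 8 measured genes, 10 windows in all. Cnr1 has 3 of these windows and Htr1d 2, and the one shown holds the most GC boxes of its gene. The other Cnr1 windows hold 0 GC boxes, with 68.8% and 49.2% GC, and the other Htr1d window holds 1, with 51.6% GC. A GC box stood in 5 of these 10 windows, from 4 genes, against 32.7% of all 32851 windows. The cyclic AMP response half-site TGACG (both strands) stood in 0 of the 10 windows, against 17.8% of all windows. The heat shock element was searched only as GAANNTTC, a palindrome in its fixed letters. That form stood in 0 of the 10, against 6.69% of all. The same letter groups in the opposite order were not searched, so the 0 covers this form only. A match is a description of letters, and its absence says only that these letters are not in the window.

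Most of the receptor genes were lower in R6/2 striatum whether or not HSP990 had been given, and Htr2c went the other way. On HSP990, 7 of the 8 genes were lower in R6/2 than in WT (background, 11.0% of all genes called lower) and 1, Htr2c, was higher (background, 22.6% of all genes called higher). On vehicle, 6 of the 8 genes were lower (background, 9.60% of all genes called lower), and Htr4 and Htr2c did not pass the test. The 2 genotype comparisons share no arrays, but the fit takes 1 estimate of the spread per gene from all 4 groups. The median log2 difference of the 8 genes was -0.73 on HSP990 and -0.78 on vehicle, where the median over all genes was 0.038 and -0.005. In 4 genes, Htr1b, Htr4, Chrm1 and Cnr1, every R6/2 HSP990 array lay below every WT HSP990 array, against 3.36% of all genes. On vehicle that held for Htr1b alone, against 2.37% of all genes. All tests here are limma's moderated two-sided tests with Benjamini-Hochberg adjustment over all 18193 genes, and a gene passed at an adjusted p under 0.05. In whole tissue, fewer cells of a type and less RNA per cell cannot be told apart.

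**Figure D1:**
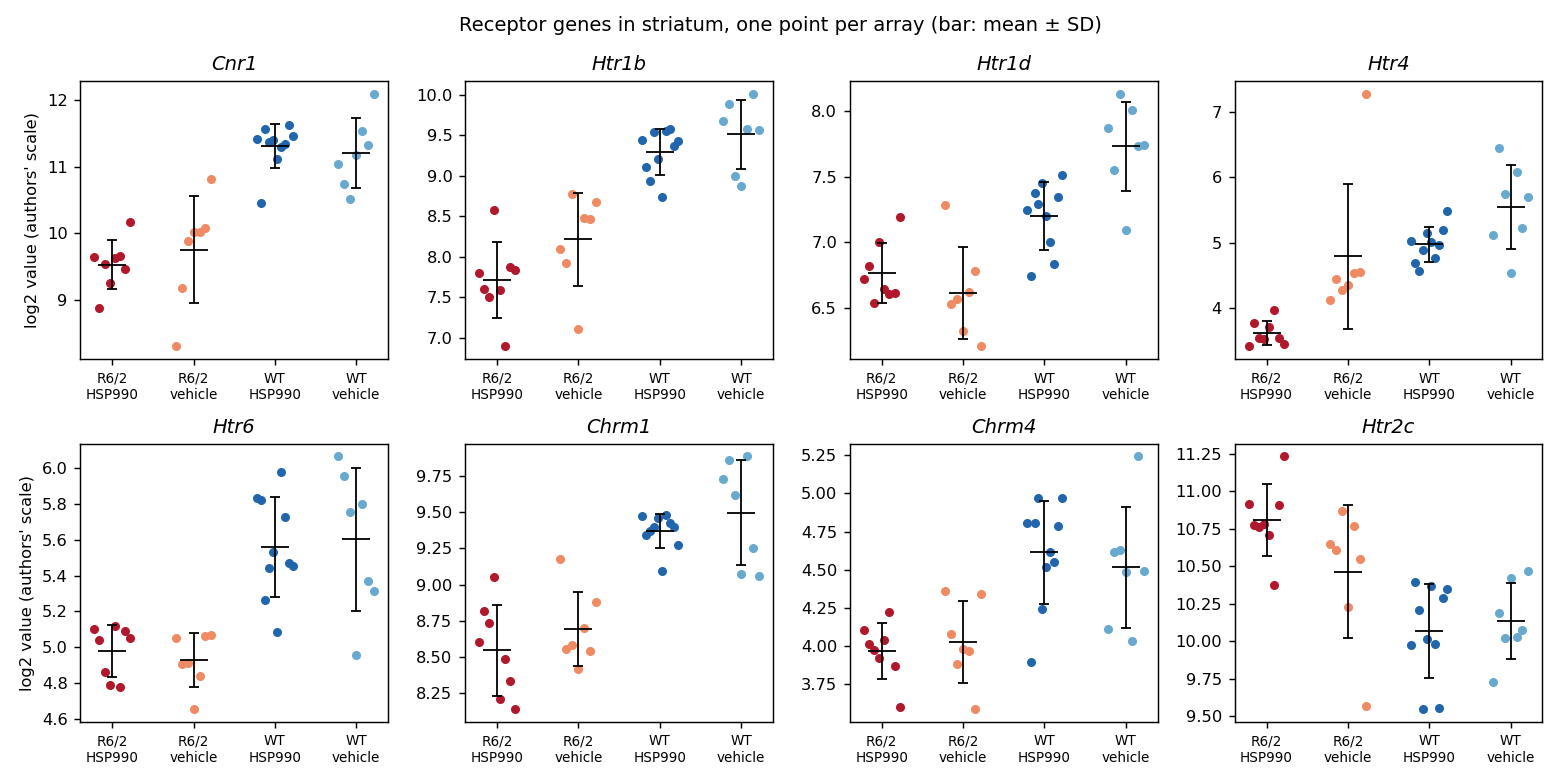
Log2 value (vertical axis, authors' scale) of the 8 receptor genes on each of the 32 arrays, by group, with the mean and SD as bars. Cnr1, Htr1b, Htr6 and Chrm1 sit lower in both R6/2 groups, Htr2c sits higher in R6/2 on HSP990, and 1 R6/2 vehicle array stands far above the rest for Htr4.

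Of the Gi-coupled serotonin receptors, Htr1b showed the larger genotype differences by the brightest probe set of each gene. The dimmer Htr1b probe set, described below, showed far less. On the brighter probe set the Htr1b values were 6.90, 7.70 and 8.58 (lowest, median, highest) in R6/2 HSP990 arrays. In WT HSP990 arrays the values were 8.74, 9.40 and 9.58. On vehicle they were 7.11, 8.47 and 8.78 in R6/2, against 8.88, 9.58 and 10.0 in WT. The genotypes did not overlap on either treatment. Htr1b was 2.99-fold lower in R6/2 than in WT on HSP990 (log2 difference -1.58 ± 0.20 SE, adjusted p = 1.37e-07) and 2.45-fold lower on vehicle (-1.29 ± 0.22, adjusted p = 5.39e-05).

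Htr1d, an autoreceptor of serotonin neurons that is also present in striatum, was lower in R6/2 on both treatments. Its lowest, median and highest values were 6.54, 6.68 and 7.19 in R6/2 HSP990 arrays, against 6.75, 7.27 and 7.51 in WT HSP990 arrays. On vehicle they were 6.21, 6.57 and 7.28 in R6/2 and 7.09, 7.74 and 8.13 in WT. The groups overlapped in both pairs, and on vehicle by a single R6/2 array. The log2 difference was -0.43 ± 0.13 on HSP990 (adjusted p = 0.0104), or 1.35-fold lower, and -1.12 ± 0.15 on vehicle (adjusted p = 1.56e-06), or 2.17-fold lower. The change between these differences did not pass the test of the interaction (0.68 ± 0.20, adjusted p = 0.123).

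The Gs-coupled receptors were dim on these arrays, with mean values below 5.77, the median of all probe sets. Htr6, a receptor found mainly in brain and abundant in striatum, had a lowest, median and highest value of 4.78, 5.05 and 5.12 in R6/2 HSP990 arrays, against 5.09, 5.50 and 5.97 in WT HSP990 arrays. On vehicle the values were 4.66, 4.92 and 5.07 in R6/2, against 4.96, 5.76 and 6.06 in WT. On both treatments the overlap came from the lowest WT array. Htr6 was 1.49-fold lower in R6/2 on HSP990 (-0.58 ± 0.12, adjusted p = 0.000254) and 1.59-fold lower on vehicle (-0.67 ± 0.13, adjusted p = 0.000415).

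Htr4 was lower in R6/2 on HSP990, and on vehicle whether it passed depended on which arrays were kept and how they were weighted. Its values were 3.42, 3.55 and 3.98 (lowest, median, highest) in R6/2 HSP990 arrays, against 4.57, 4.99 and 5.49 in WT HSP990 arrays, with no overlap. The log2 difference was -1.35 ± 0.28 (adjusted p = 0.000212), or 2.56-fold lower in R6/2. On vehicle the values were 4.12, 4.44 and 7.28 in R6/2, against 4.53, 5.69 and 6.45 in WT. The highest R6/2 vehicle value, 7.28 in replicate 7, stood apart from the other 6 R6/2 vehicle arrays, which ranged from 4.12 to 4.55. With it, the difference on vehicle was -0.75 ± 0.31 (adjusted p = 0.0825), and without it -1.17 ± 0.19 (adjusted p = 2.41e-05).

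R6/2 vehicle replicate 7 differed from the other arrays in more than Htr4. Among the 32 arrays it had the highest mean over the cortex markers (8.90), the neighbouring subcortical markers (6.52) and the astrocyte markers (10.4). The highest of the other 31 arrays reached 8.78, 6.17 and 10.3 for these lists. Its Hspa1a value of 7.82 was the highest among vehicle arrays. The part of these differences in its Htr4 value was not tested.

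**Figure D2:**
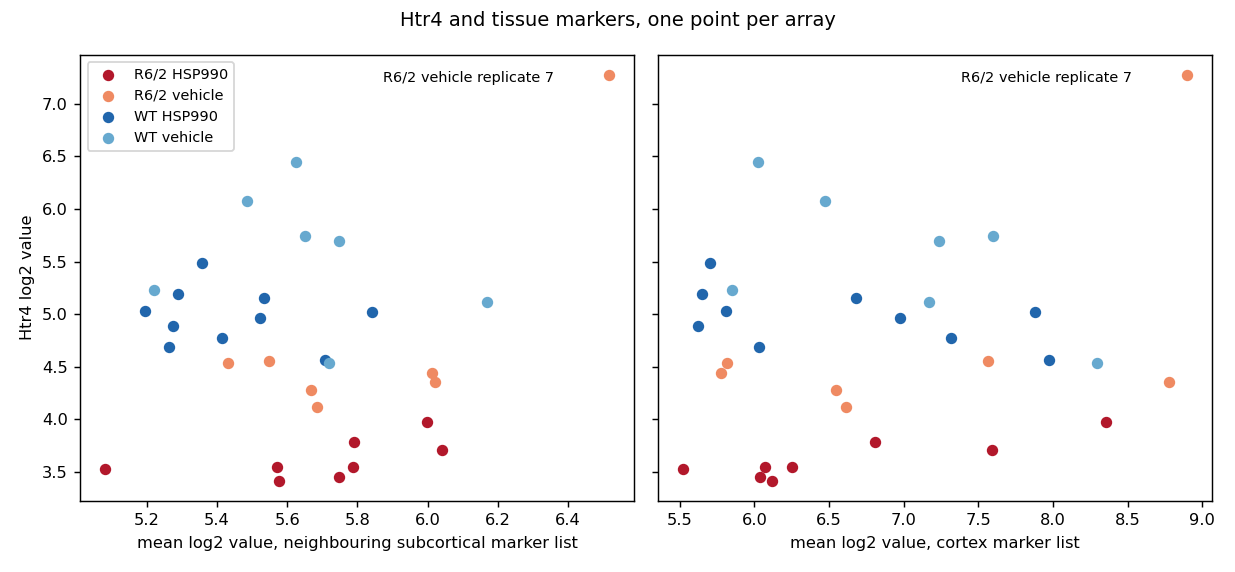
Htr4 log2 value (vertical axis) against the mean log2 value of 6 neighbouring subcortical markers (left) and 7 cortex markers (right), a point per array, coloured by group. R6/2 vehicle replicate 7 lies at the top right of both panels (Htr4 at 7.28), while the R6/2 HSP990 arrays are at or below 3.98, with subcortical means of 5.08 to 6.04 and cortex means of 5.52 to 8.35, all below those of replicate 7.

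Htr2c, a Gq-coupled receptor whose RNA is edited by adenosine deaminases, was the only one of the 8 genes that was higher in R6/2. The lowest, median and highest values were 10.4, 10.8 and 11.2 in R6/2 HSP990 arrays, against 9.55, 10.1 and 10.4 in WT HSP990 arrays. On vehicle they were 9.57, 10.6 and 10.9 in R6/2, against 9.73, 10.1 and 10.5 in WT. On HSP990 the groups met only at the edge, where the lowest R6/2 array (10.37) lay below the highest WT array (10.39), and on vehicle they overlapped. Htr2c was 1.67-fold higher in R6/2 on HSP990 (0.74 ± 0.14, adjusted p = 0.000134), and the difference on vehicle was 0.33 ± 0.16 (adjusted p = 0.158). That the genotype difference itself differed between treatments was not shown (interaction 0.41 ± 0.22, adjusted p = 0.437). Without R6/2 vehicle replicate 7 the difference on vehicle passed (0.48 ± 0.14, adjusted p = 0.0134).

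Choroid plexus tissue is rich in Htr2c, and the mean over the choroid plexus markers ranged from 5.56 to 8.05 in R6/2 HSP990 arrays, from 5.24 to 6.84 in R6/2 vehicle arrays, from 5.47 to 9.23 in WT HSP990 arrays and from 5.60 to 8.69 in WT vehicle arrays. With that mean as a covariate the Htr2c difference on HSP990 was 0.73 ± 0.13 (adjusted p = 6.08e-05), close to the value without it. On vehicle the covariate brought the difference to 0.44 ± 0.16 (adjusted p = 0.0446). The dimmer Htr2c probe set, 1450477_at, had a log2 difference of -0.08 ± 0.26 on HSP990 and 0.13 ± 0.29 on vehicle, and neither passed. Averaging both probe sets took the HSP990 difference to 0.33 ± 0.16 (adjusted p = 0.133).

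Chrm1, the main muscarinic receptor of spiny neurons, was lower in R6/2 on both treatments. Its lowest, median and highest values were 8.14, 8.55 and 9.05 in R6/2 HSP990 arrays, against 9.09, 9.40 and 9.48 in WT HSP990 arrays, with no overlap. On vehicle they were 8.42, 8.58 and 9.18 in R6/2, against 9.06, 9.62 and 9.89 in WT, where the highest R6/2 array reached into the WT range. The log2 difference was -0.82 ± 0.12 on HSP990 (adjusted p = 2.54e-06), or 1.77-fold lower, and -0.80 ± 0.14 on vehicle (adjusted p = 5.58e-05), or 1.75-fold lower.

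Chrm4, the Gi-coupled muscarinic receptor, was dim and its groups overlapped on both treatments. It had 3.60, 4.00 and 4.23 in R6/2 HSP990 arrays (lowest, median, highest), against 3.89, 4.70 and 4.97 in WT HSP990 arrays. On vehicle it had 3.59, 3.98 and 4.36 in R6/2, against 4.03, 4.49 and 5.24 in WT. The difference was -0.64 ± 0.14 on HSP990 (adjusted p = 0.00042) and -0.49 ± 0.16 on vehicle (adjusted p = 0.0237). On vehicle it no longer passed without R6/2 vehicle replicate 6 (adjusted p = 0.068), without WT vehicle replicate 6 (adjusted p = 0.0766) or when only the compared groups were fitted (adjusted p = 0.0573).

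Cnr1, the cannabinoid receptor of spiny neuron terminals, had the largest genotype difference of the 8 genes on both treatments. The lowest, median and highest values were 8.87, 9.59 and 10.2 in R6/2 HSP990 arrays, against 10.5, 11.4 and 11.6 in WT HSP990 arrays, with no overlap. On vehicle they were 8.30, 10.0 and 10.8 in R6/2, against 10.5, 11.2 and 12.1 in WT. The overlap on vehicle came from the highest R6/2 array, at 10.8. Cnr1 was 3.42-fold lower in R6/2 on HSP990 (-1.78 ± 0.23, adjusted p = 2.78e-07) and 2.73-fold lower on vehicle (-1.45 ± 0.26, adjusted p = 0.000103).

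The probe sets of a gene did not always give the same size of difference. Tested over all probe sets, 11 of the 15 receptor probe sets were lower in R6/2 on HSP990 (background, 11.5% of all probe sets called lower), 1 was higher and 3 did not pass. On vehicle 10 of the 15 were lower (background, 7.03%) and 5 did not pass. Both Cnr1 probe sets were lower, and the dimmer one, 1419425_at, showed no overlap of genotypes on either treatment, with -1.93 ± 0.16 on HSP990 and -1.59 ± 0.17 on vehicle. All 3 Htr1d probe sets were lower on both treatments, from -0.63 to -0.37 on HSP990 and from -1.55 to -0.39 on vehicle. The second Htr1b probe set, 1422288_at, showed far less than 1442077_at: -0.11 ± 0.06 on HSP990 (adjusted p = 0.237) and -0.26 ± 0.07 on vehicle (adjusted p = 0.0118). The second Chrm1 probe set, 1450833_at, was lower on HSP990 (-0.77 ± 0.11, adjusted p = 1.57e-06) and had -0.34 ± 0.12 on vehicle (adjusted p = 0.055). For Htr4, the dimmer probe set 1427654_a_at had group medians of 3.60 to 3.70 and did not pass.

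**Figure D3:**
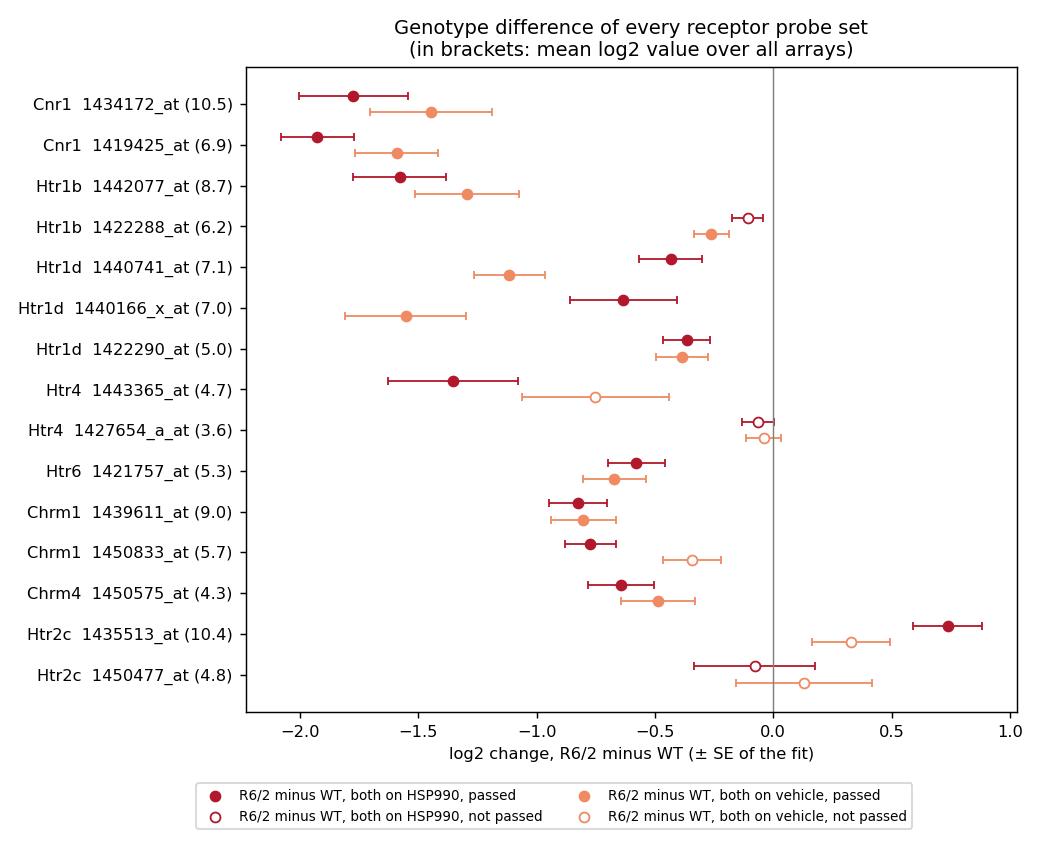
Log2 difference between R6/2 and WT (horizontal axis, with the SE of the fit) for the 15 receptor probe sets, on HSP990 (dark red) and on vehicle (orange); filled points passed the test over all probe sets. Both Cnr1 probe sets lie left of -1.4, the Htr1b probe sets lie far apart, and only 1 Htr2c probe set lies clearly to the right of 0.

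HSP990 itself moved few of these genes at 4 h. In R6/2, 1 of the 8 receptor genes passed, Htr4, which was lower (background, 0.918% of all genes called lower). Its range was 3.42 to 3.98 in R6/2 HSP990 arrays, against 4.12 to 7.28 in R6/2 vehicle arrays, without overlap, as in 0.170% of all genes. The log2 difference was -1.17 ± 0.30 (adjusted p = 0.0244), or 2.26-fold lower with HSP990. Without R6/2 vehicle replicate 7 it was -0.76 ± 0.18 (adjusted p = 0.0218). The second Htr4 probe set, 1427654_a_at, had 0.03 ± 0.07 (adjusted p = 0.914 over all probe sets). The Htr4 call itself, from the brighter probe set, did not hold in every fit. Htr4 did not pass with only the R6/2 arrays in the fit (adjusted p = 0.14) or once the 3' bias entered the fit as a covariate (adjusted p = 0.0556).

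In WT, 1 of the 8 genes passed, Htr1d (background, 5.80% of all genes called in either direction). Its lowest, median and highest values were 6.75, 7.27 and 7.51 in WT HSP990 arrays, against 7.09, 7.74 and 8.13 in WT vehicle arrays, so the groups overlapped. It was 1.44-fold lower with HSP990 (-0.53 ± 0.14, adjusted p = 0.0159), and without WT vehicle replicate 3 it missed the threshold (-0.46 ± 0.14, adjusted p = 0.0563). The other Htr1d probe sets had -0.63 ± 0.23 (1440166_x_at, adjusted p = 0.128) and -0.17 ± 0.10 (1422290_at, adjusted p = 0.43). Htr4 had -0.57 ± 0.29 in WT (adjusted p = 0.282), and passed only without R6/2 vehicle replicate 7 (-0.57 ± 0.17, adjusted p = 0.0333). That array is in neither WT group and entered this test through the spread shared by all groups.

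For the remaining genes the 95% intervals of the response are those of the brightest probe set. They bound only what that probe set could have missed. In R6/2, Htr1b had -0.51 with an interval from -0.94 to -0.07 (adjusted p = 0.223) and Htr2c 0.34 with an interval from 0.02 to 0.67 (adjusted p = 0.274). Their dimmer probe sets had intervals from -0.10 to 0.19 (Htr1b) and from -0.45 to 0.68 (Htr2c). The intervals of Chrm1 and Chrm4 in R6/2 ran from -0.42 to 0.13 and from -0.37 to 0.25. The Cnr1 interval was wider, from -0.74 to 0.28 in R6/2 and from -0.39 to 0.59 in WT. For Chrm1 in WT it ran from -0.38 to 0.13. In WT the dimmer probe sets reached higher, from 0.07 to 0.53 for Chrm1 (1450833_at) and from 0.06 to 0.72 for Cnr1 (1419425_at). Neither passed by limma over all probe sets (adjusted p = 0.135 and 0.186). In R6/2 these 2 probe sets ran from -0.37 to 0.11 and from -0.29 to 0.40. Of the brightest probe sets of these genes, that of Htr6 had the narrowest interval, from -0.22 to 0.32 in R6/2 and from -0.29 to 0.21 in WT. Htr6 and Chrm4 were dim and their signal over background is unknown, so their intervals bound the measured values only. Both treatment comparisons use the same vehicle arrays as the vehicle genotype comparison, so their values are not independent of it.

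**Figure D4:**
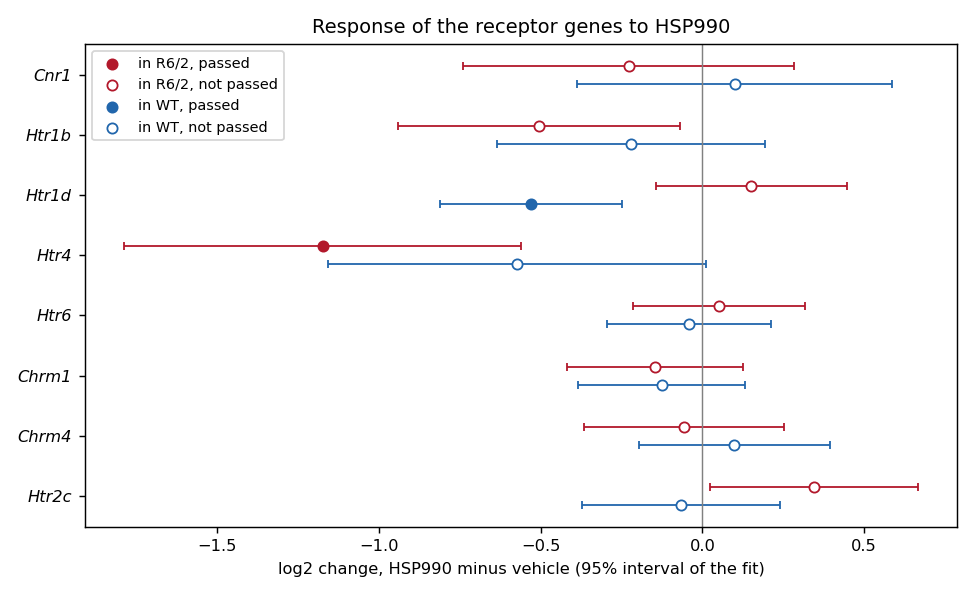
Log2 difference between HSP990 and vehicle (horizontal axis, with the 95% interval of the fit) for the 8 receptor genes, in R6/2 (red) and WT (blue); filled points passed the test over all genes. Htr4 in R6/2 and Htr1d in WT passed, and most other intervals span 0.

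The interaction, the R6/2 response to HSP990 minus the WT response, passed for 0 of the 8 genes by limma (background, 0.247% of all genes called), and 1 gene, Htr1d, had an unadjusted p under 0.05. For Htr1d the response to HSP990 was 0.15 ± 0.14 in R6/2 and -0.53 ± 0.14 in WT. Without R6/2 vehicle replicate 1, the highest R6/2 vehicle array for this gene, the interaction was 0.79 ± 0.18 and passed (adjusted p = 0.0308).

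The genes that work with these receptors were counted from lists arranged by role. The background for each of these lists, and for the cell markers after them, is 11.0% of all genes called lower and 22.6% called higher in R6/2 on HSP990, and 9.60% lower and 11.9% higher on vehicle. For HSP990 against vehicle it is 0.918% lower and 2.18% higher in R6/2, and 3.57% lower and 2.24% higher in WT. In lists of this size, counts of 0 called genes are near these treatment shares. Endocannabinoid 2-arachidonoylglycerol is made by Dagla and broken down by Mgll, and both were lower in R6/2. Dagla had a log2 difference of -0.76 ± 0.10 on HSP990 and -0.64 ± 0.11 on vehicle, and Mgll of -0.41 ± 0.09 on HSP990 and -0.62 ± 0.10 on vehicle. Cnrip1, whose protein binds the tail of the cannabinoid receptor, was higher (0.62 ± 0.16 on HSP990, 0.68 ± 0.18 on vehicle). Of the 12 measured genes of the list, 2 were lower and 3 higher on HSP990, the others being Napepld (0.60 ± 0.18), which makes anandamide, and the lipase gene Abhd12 (0.16 ± 0.05). On vehicle 2 were lower and 1 was higher. Counts of 2 and 3 in 12 genes are near the background shares on HSP990. The list median was 0.016 on HSP990 and -0.007 on vehicle, near the median of all genes.

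In the Gi, Go and Gs list, 5 of 18 genes were lower and 3 higher in R6/2 on HSP990, and 6 were lower and 2 higher on vehicle. Adcy5, the main striatal adenylyl cyclase, was 2.95-fold lower on HSP990 (-1.56 ± 0.13, adjusted p = 8.91e-11) and 3.18-fold lower on vehicle (-1.67 ± 0.15, adjusted p = 1.62e-09). Genes of its G protein partners were lower too. Gng7, a G protein gamma subunit, had a log2 difference of -1.005 ± 0.19 on HSP990 and -1.30 ± 0.22 on vehicle, and Gnal, the striatal Gs-type alpha subunit, of -0.67 ± 0.13 on HSP990 and -0.59 ± 0.14 on vehicle. Gnao1, which encodes the Go alpha subunit, was lower (-0.57 ± 0.13 on HSP990, -0.75 ± 0.15 on vehicle), and so was Adcy9 (-0.39 ± 0.10 on HSP990, -0.53 ± 0.12 on vehicle). Adcy3 was lower on vehicle (-0.29 ± 0.07). The Gi alpha subunit genes Gnai1 (0.30 ± 0.08 on HSP990, 0.29 ± 0.09 on vehicle) and Gnai3 (0.31 ± 0.11 on HSP990, 0.37 ± 0.12 on vehicle) were higher, as was the GIRK channel gene Kcnj3 on HSP990 (0.95 ± 0.28). HSP990 lowered 2 genes of this list in WT, Adcy3 (-0.30 ± 0.07) and Adcy9 (-0.46 ± 0.11), and 0 of the 18 passed in R6/2 by limma, with 5 at an unadjusted p under 0.05.

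In the Gq list, 5 of 12 measured genes were lower and 2 higher in R6/2 on HSP990, and 4 were lower and 1 was higher on vehicle. Prkcb, a protein kinase C, was lower (-0.73 ± 0.07 on HSP990, -0.66 ± 0.08 on vehicle), as was Plcb1, a phospholipase C downstream of Chrm1 (-0.70 ± 0.11 on HSP990, -0.56 ± 0.13 on vehicle). The M-current channel genes Kcnq5 (-0.73 ± 0.08 on HSP990, -0.81 ± 0.09 on vehicle) and Kcnq3 (-0.59 ± 0.10 on HSP990, -0.62 ± 0.11 on vehicle) were lower, whereas Gnaq, the Gq alpha subunit, was higher (0.27 ± 0.09 on HSP990, 0.41 ± 0.10 on vehicle). On HSP990, Gna14 was also lower (-0.27 ± 0.10) and Plcb4 higher (0.41 ± 0.13). HSP990 against vehicle gave 0 calls among the 12 by limma in either genotype, with 2 in R6/2 and 0 in WT at an unadjusted p under 0.05.

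Among 14 measured genes of receptor regulation, 2 were lower and 5 higher in R6/2 on HSP990, and 1 was lower and 3 were higher on vehicle. The sorting genes Gprasp1 and Gprasp2, whose proteins direct internalised receptors to lysosomes, were higher in R6/2 on both treatments, Gprasp2 by 0.73 ± 0.12 on HSP990 and 1.14 ± 0.14 on vehicle. Both also responded to the compound. Gprasp2 rose with HSP990 by 0.68 ± 0.13 in R6/2 (adjusted p = 0.00192) and by 1.09 ± 0.13 in WT (adjusted p = 2.77e-07). Gprasp1 rose by 0.35 ± 0.08 in R6/2 and 0.38 ± 0.08 in WT. Mpdz, a scaffold that binds Htr2c, rose with HSP990 in WT (0.73 ± 0.12, adjusted p = 0.000188) and was higher in R6/2 on vehicle (0.70 ± 0.13). Adarb1, which edits Htr2c RNA, was slightly lower in R6/2 (-0.19 ± 0.07 on HSP990, -0.25 ± 0.08 on vehicle). On HSP990 the kinase genes Grk6 (0.49 ± 0.10) and Grk4 (0.39 ± 0.10) and the arrestin gene Arrb2 (0.43 ± 0.11) were higher, and the scaffold gene Dlg4 was lower (-1.50 ± 0.37).

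**Figure D5:**
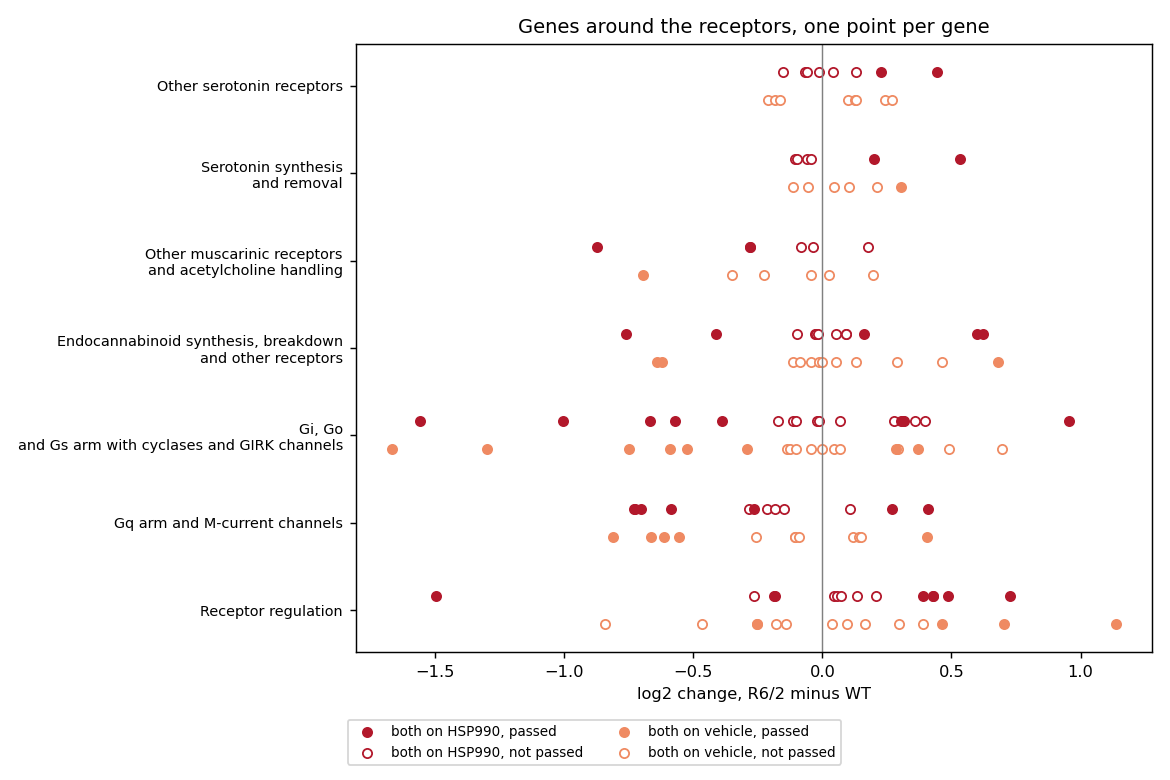
Log2 difference between R6/2 and WT (horizontal axis) of every measured gene in 7 lists of genes that work with the receptors, on HSP990 (dark red) and on vehicle (orange); filled points passed the test over all genes. The Gi, Go and Gs list reaches furthest down, with Adcy5 at -1.56 on HSP990 and -1.67 on vehicle, and no gene of the serotonin lists goes beyond Ddc at 0.53.

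In the serotonin lists few genes passed. Of the 8 other serotonin receptor genes, 0 were lower in R6/2, and Htr5a (0.45 ± 0.10) and Htr3a (0.23 ± 0.09) were higher on HSP990, a share near the background of 22.6%. On vehicle 0 of the 8 passed by limma, and 2 had an unadjusted p under 0.05, Htr2b (-0.21 ± 0.08, adjusted p = 0.0539) and Htr3b (-0.18 ± 0.08, adjusted p = 0.104). Of 6 genes for making and removing serotonin, Maoa, a monoamine oxidase, was higher on HSP990 (0.20 ± 0.07) and on vehicle (0.30 ± 0.08), and Ddc, an aromatic amino acid decarboxylase, on HSP990 (0.53 ± 0.18). Of 6 measured genes of the acetylcholine list, Slc18a3, the vesicular acetylcholine transporter, was lower (-0.87 ± 0.11 on HSP990, -0.70 ± 0.13 on vehicle). Chat (-0.28 ± 0.09) and Slc5a7 (-0.28 ± 0.09), 2 more markers of cholinergic interneurons, were lower on HSP990. HSP990 against vehicle gave 0 calls by limma in the serotonin, acetylcholine and endocannabinoid lists in either genotype, with at most 2 genes of a list at an unadjusted p under 0.05.

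Markers of the cells that carry the receptors moved with genotype. All 7 measured markers of spiny neurons were lower in R6/2 on both treatments, with medians of -1.59 on HSP990 and -1.67 on vehicle. Their mean ranged from 9.72 to 10.7 in R6/2 HSP990 arrays and from 9.40 to 10.9 in R6/2 vehicle arrays, against 11.6 to 12.1 in WT HSP990 arrays and 11.5 to 11.9 in WT vehicle arrays. Adcy5 stands both in that list and in the Gi, Go and Gs list. Of 5 measured direct-pathway markers, 2 were lower on each treatment (Drd1 and the opioid peptide gene Pdyn), Eya1 was higher and 2 did not pass, with medians of -0.33 on HSP990 and -0.37 on vehicle. All 3 measured indirect-pathway markers, Drd2, Gpr6 and the opioid peptide gene Penk, were lower on each treatment, with medians of -1.87 on HSP990 and -1.55 on vehicle. Drd1 had a log2 difference of -2.14 ± 0.15 on HSP990 and -1.30 ± 0.16 on vehicle, and Drd2 of -1.87 ± 0.24 on HSP990 and -1.78 ± 0.27 on vehicle. With HSP990 in R6/2, Drd1 was lower by limma (-0.80 ± 0.16, adjusted p = 0.00242), and the other 4 direct-pathway markers did not pass. Of the 3 indirect-pathway markers Gpr6 was lower (-1.01 ± 0.22, adjusted p = 0.00754) and 2 did not pass. None of the 7 spiny neuron markers passed in that comparison. Among cholinergic interneuron markers, 4 of 6 were lower on HSP990 and 3 of 6 on vehicle, and among markers of other interneurons 4 of 6 on each treatment.

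Some markers of other cell types were lower as well. On HSP990, 4 of 6 astrocyte, 3 of 5 oligodendrocyte, 4 of 6 microglia and 1 of 6 endothelial markers were lower in R6/2. On vehicle, 1 of 6 astrocyte, 1 of 5 oligodendrocyte and 1 of 6 microglia markers were lower, and 0 of 6 endothelial markers passed by limma or at an unadjusted p under 0.05. The mean over the microglia markers ranged from 7.70 to 8.53 in R6/2 HSP990 arrays and from 8.64 to 8.83 in WT HSP990 arrays, without overlap. On vehicle it ranged from 8.06 to 8.61 in R6/2 arrays and from 8.31 to 8.88 in WT arrays, and the groups overlapped. The part of these shifts in the receptor differences was not tested.

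Within groups, the receptor genes did not vary as a block. After the mean of each group was taken off, the correlation between pairs of receptor genes over the 32 arrays ran from -0.51 (Htr2c with Htr4) to 0.49 (Htr6 with Chrm1). The correlation of Htr2c with Htr4 rested on R6/2 vehicle replicate 7 and was -0.093 over the 31 arrays without it. Without that array the pairs ran from -0.54 (Chrm1 with Cnr1) to 0.48 (Htr6 with Chrm1). Each had closer company elsewhere among the 18193 genes, described here by Pearson's r of the same deviations, which share the arrays' dissection and RNA quality. Cnr1 was most like Atp2a2 (r = 0.94), a calcium pump of the endoplasmic reticulum, Rasgrp1 (0.93) and Pgbd5 (0.89). Chrm1 was most like Nab2 (0.88), Shank3 (0.87), a postsynaptic scaffold, and Phyhip (0.86). Htr1b was most like the spiny neuron genes Drd1 (0.85) and Gpr6 (0.84), and Pcp4 (0.82).

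The other receptors had weaker companions. Htr2c was most like Spint2 (0.74), Sin3b (0.73) and Hs6st2 (0.69), Htr6 like Marchf4 (0.75), Dleu2 (0.73) and Ncoa3 (0.72), and Htr1d like Vil1 (0.73), Fbxl21 (0.72) and Zfp467 (0.67). Chrm4 was most like Dtd1, Terb2 and Ptk7, at 0.62 to 0.64. For Htr4 the most like genes were Nhlh2 (0.84), Irx2 (0.83) and Tnfrsf25 (0.82), and these rested on R6/2 vehicle replicate 7. That array had Nhlh2 at 6.57, Irx2 at 6.62 and Tnfrsf25 at 7.08, where the other 31 arrays reached at most 3.49, 4.62 and 5.17. Without it the correlations with Htr4 were 0.28, 0.33 and 0.34. Of these 24 companion genes of the 8 receptors, 11 were lower and 4 higher in R6/2 on HSP990, and 9 did not pass (background, 11.0% called lower and 22.6% called higher). On vehicle 9 were lower and 2 higher, and 13 did not pass (background, 9.60% called lower and 11.9% called higher).

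The deviations of the 8 genes were also set against the choroid plexus mean, the cortex mean and the 3' bias of each array, 24 relations in all, with permutation within groups and Benjamini-Hochberg adjustment. Htr1b was lower on arrays with higher cortex markers by Pearson's r (r = -0.58, permutation p = 0.0014, adjusted p = 0.0336), while Spearman's rho was -0.48 (permutation p = 0.0113, adjusted p = 0.0906). Without the 2 arrays farthest from the median r was -0.65, and in the 4 groups it ran from -0.92 to -0.25. Htr2c was higher on arrays with higher choroid plexus markers by rank (rho = 0.55, permutation p = 0.00158, adjusted p = 0.019), with r = 0.41 (permutation p = 0.0132, adjusted p = 0.105). That r was 0.32 without the 2 farthest arrays and ran from -0.31 to 0.72 within groups. Htr6 was higher on arrays with more 3' bias by rank (rho = 0.59, permutation p = 0.0008, adjusted p = 0.019), with r = 0.39 (permutation p = 0.00623, adjusted p = 0.0748), 0.45 without the 2 farthest arrays, and 0.26 to 0.70 within groups. With the cortex mean as a covariate the Htr1b genotype difference was -1.57 ± 0.16 on HSP990 and -1.25 ± 0.18 on vehicle. Without it the Htr1b difference was -1.58 on HSP990 and -1.29 on vehicle. With the 3' bias as a covariate the Htr6 difference was -0.69 ± 0.12 on HSP990 and -0.63 ± 0.13 on vehicle, against -0.58 and -0.67 without it. Each of these differences passed. The part of cortex tissue or 3' bias in them was not tested. The Htr1b response to HSP990 in R6/2 passed with the cortex covariate (-0.64 ± 0.18, adjusted p = 0.0493) and not without it.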

How the data were processed

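Total RNA from striatum was labelled with biotin by a 3' in vitro transcription kit and hybridised to Affymetrix mouse arrays, per the labels' protocols. The authors deposited log2 values, from 2.15 to 14.7, with array medians of 5.73 to 5.78. How they were normalized is not stated in the labels or headers, and no detection calls were analysed, so signal over background is unknown and the number of arrays limits precision.

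Of 45101 probe sets, 64 controls served for quality only. The platform table gave 34945 of the rest a single symbol, 932 several and 9160 none, and 204 single-gene probe sets were not in the gene table and kept their symbol. For each gene the brightest probe set that names it alone, by mean over all arrays, was used, and levels were not compared between probe sets. Group means were fitted with limma 3.58.1 in R 4.3.3 (data.table version 1.17.8), with 5 contrasts and Benjamini-Hochberg adjustment over 18193 genes, or over 45037 probe sets where stated. Errors are standard errors of the fit. The code was tested on simulated data. Correlations used 100000 permutations within groups (Python 3.11.15, scipy 1.17.1, numpy 2.4.6, pandas 2.3.3), and figures matplotlib 3.10.9. Marker and 3' bias covariates, array weights, other normalizations, other probe set choices, a replicate block and each array left out in turn were alternatives.

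The members, lists and tests were chosen with earlier results of these data known. All members are named, with all probe sets. Of each list, up to 3 called genes with the smallest p per comparison are named, or all where 5 or fewer were called, and the 3 genes most like each member. Adcy9, Adcy3, Gnai1, Gnai3, Kcnj3, Kcnq3, Gnaq, Gna14, Plcb4, Grk4, Arrb2, Dlg4, Gnao1, Gnal, Adarb1, Htr2b and Htr3b are named in some comparisons beyond that rule, after their values were seen, as are Hspa1a and Ppp1r1b, which check the labels. Some genes of the lists are not reported here.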

Additional observations from a re-analysis of the deposited data

Results flagged for a closer look

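Over 60 combinations of probe set and group, 3 held a sample far from the others by Dixon's test, where chance alone flags about 1 in 20 groups. For Htr4 (1443365_at), R6/2 vehicle replicate 7 was at 7.28, above the next array at 4.55 and the lowest at 4.12. For Cnr1 (1434172_at), WT HSP990 replicate 2 was at 10.46, below the next array at 11.1 and the highest at 11.6. The same array had 4.54 for Htr1d (1422290_at), below the next at 5.02 and the highest at 5.49. Without WT HSP990 replicate 2, the Cnr1 difference between R6/2 and WT on HSP990 was -1.87 ± 0.23, still past the threshold (adjusted p = 1.18e-07 by limma).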

How the results depend on the processing

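The genotype differences that passed on HSP990 kept their direction in all 13 alternatives (12 for the dim genes Htr4, Htr6 and Chrm4) and in all 32 fits that left out an array, and passed in them, except that Htr2c did not pass with the mean of the probe sets (0.33, adjusted p = 0.133). Removing dim genes, which takes Htr4, Htr6 and Chrm4 out of the test, left 5 called genes in that comparison. On vehicle, 5 of the 6 called genes passed in every alternative and Chrm4 did not. The count of called genes on vehicle ran from 4 to 8 over the alternatives and from 5 to 8 when an array was left out. Htr4 passed on vehicle with array weights (-1.02, adjusted p = 0.00185) and without WT vehicle replicate 4 (-0.92, adjusted p = 0.0302), and Htr2c with array weights (0.49, adjusted p = 0.0203). For HSP990 in R6/2 the count of 1 became 0 with dim genes removed, with only the groups compared and with the 3' bias covariate, and 2 with the cortex covariate. For HSP990 in WT it ran from 0 (without WT vehicle replicate 3) to 2 (without R6/2 vehicle replicate 7), and for the interaction from 0 to 1 (without R6/2 vehicle replicate 1). Beyond the removed genes, the cause was not tested. Some responses that passed in no fit changed sign. In R6/2 these were Chrm4 (0.022 with the 3' bias covariate, 0.041 with array weights) and Htr6 (-0.047 with the 3' bias covariate). In WT they were Chrm1 (0.087 with the mean of the probe sets), Htr2c (0.016 with the choroid plexus covariate, 0.13 with the mean of the probe sets), Htr6 (0.011 with the 3' bias covariate, -0.15 to 0.035 with an array left out) and Cnr1 (-0.014 to 0.25 with an array left out). In the interaction they were Htr6 (-0.059 with the 3' bias covariate) and Chrm1 (0.11 with array weights, 0.087 with the choroid plexus covariate, -0.092 to 0.060 with an array left out). Replicate numbers were not taken as pairs in the main fit. Between genotypes, same-numbered arrays correlated above 0.1 in 5 of 7 pairs on vehicle and 3 of 8 on HSP990. Between treatments they did so in 2 of 7 pairs in R6/2 and 3 of 7 in WT. In the same order, the best match had the same number in 1, 2, 0 and 1 of these pairs. Differently numbered arrays were not counted, so these values do not decide whether the numbers pair the arrays. A replicate block left the counts at 8 on HSP990 and 6 on vehicle between genotypes, 1 in R6/2 and 1 in WT between treatments, and 0 for the interaction, and with it Cnr1 in WT was -0.011. Over all genes, array weights called 1815 genes for HSP990 in WT and 150 for the interaction, against 1056 and 45, and a replicate block 655 and 23. The interaction had 16 calls with the 3' bias covariate, 80 with the mean of the probe sets, 25 without the arrays of strong 3' bias and 30 to 182 with an array left out. HSP990 in R6/2 had 202 calls with only the groups compared, 368 with the 3' bias covariate and 309 to 1043 with an array left out, against 563. Leaving out the 2 arrays of strong 3' bias by the Gapdh probe sets, chosen after the data were seen, changed no call of a receptor gene.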
